A study of Mus musculus with 6 samples.

Results

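Genes of the lysosome were examined in microglia, the resident immune cells of the brain, isolated from mice after transient middle cerebral artery occlusion (tMCAO), a model of ischemic stroke in which an artery is blocked with a filament and then reopened. The 36 genes encode lysosomal hydrolases, their cofactors, membrane proteins of the lysosome and subunits of its proton pump. They were chosen by symbol, as a list of known lysosomal genes, and found on the array through the accession of each probe. All 36 had a named probe, and 33 of them could be tested among the 18222 named genes tested. The control group was PGC-1α f/f, mice that carry a loxP-flanked PGC-1α allele together with eGFP, without the Cre. The mPGC-1α group carried the same allele and a tamoxifen-inducible Cre driven by Cx3cr1, a gene of microglia and other mononuclear phagocytes. In the study this cross was made to overexpress PGC-1α in microglia, not to delete it. The study's methods gave tamoxifen before tMCAO, used littermates as controls on a C57BL/6 background, and selected the cells with magnetic beads for the receptor P2RY12. The labels give all animals as male and 10 weeks old, and name 3 samples a group, each on 1 array. Neither the labels nor the methods say whether a sample was 1 animal or a pool, so the p-values measure only the spread between these samples. The time between stroke and cell isolation is not given for these arrays in the sources used here.

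The lysosome is the acid compartment in which cells break down proteins, sugars and lipids that arrive by endocytosis, phagocytosis and autophagy. A proton pump in its membrane acidifies the lumen, and the hydrolases work at that acid pH. Microglia are rich in lysosomes and use them to degrade myelin and cell debris after injury. The transcription factors TFEB, TFE3 and MITF bind an E-box-like sequence that is common in promoters of lysosomal genes and is known as the CLEAR element.

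The promoters of the genes were searched for 2 motifs, and those that hold the longer one are shown because they carry the sequence that gene lists of the lysosome are known for. The RefSeq promoter table (GRCm38.p6) spans 250 bases before to 50 bases after each start and holds 31 promoters for 29 of the 36 genes. The E-box CACGTG stood in 10 of these 31 promoters (32.3%), against 7.15% of all 32851 promoters. The longer CLEAR core TCACGTGA, which contains the E-box, stood in 6 of 31 (19.4%), against 0.974% of all. Both motifs read the same on the opposite strand. Among the other lysosomal genes listed below, 14 of 62 promoters held the E-box (22.6%) and 7 held the longer core (11.3%). Each 30-base window is written 5′ to 3′ on the strand of its gene, with the TCACGTGA core in capitals.
Ctsa: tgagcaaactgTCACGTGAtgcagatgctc
Ctsd: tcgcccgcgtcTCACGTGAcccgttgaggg
Mcoln1: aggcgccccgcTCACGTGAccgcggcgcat
Atp6v0d1: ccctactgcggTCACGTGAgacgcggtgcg
Atp6v1a: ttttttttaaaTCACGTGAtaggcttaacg
Gla: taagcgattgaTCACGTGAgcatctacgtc
The windows lie at chr2:164833749-164833778 on the plus strand for Ctsa, chr7:142387908-142387937 on the minus strand for Ctsd, chr8:3500462-3500491 on the plus strand for Mcoln1, chr8:105566050-105566079 on the minus strand for Atp6v0d1, chr16:44139373-44139402 on the minus strand for Atp6v1a and chrX:134601215-134601244 on the minus strand for Gla. The core begins 13 bases before the start in Ctsa (the second of its listed promoters), 99 in Ctsd, 46 in Mcoln1, 4 in Atp6v0d1, 132 in Atp6v1a and 228 in Gla. Of these 6 genes, 5 could be tested between the groups and none of them passed the test, with differences above 0 in 4 and below 0 in 1, as given below.

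Each array held 59305 spots that are not controls, of which 71.0% to 86.5% were well above background and 0 were saturated. The scanner software had marked 549 to 1094 spots as outliers on the 4 arrays of the first slide, and 3010 and 4931 on the 2 arrays of the second slide, 1 of each group. Control array 2 and the other 5 arrays were opposite in the genes that mark sex. Xist, the RNA of the inactive X chromosome, was at -4.83 on control array 2 and between -0.57 and -0.11 on the other 5 arrays (log2 of the signal minus the 75th percentile of the array, the scale of every level below). The Y-linked gene Eif2s3y was at 0.03 on control array 2 and between -8.64 and -7.09 on the others by one of its probes. All labels read male, which the values of control array 2 match and those of the other 5 arrays go against, so the sex or sample labels of those 5 are in doubt. As 1 array differs from the rest, the differences that moved by over 1.5 times without control array 2 are also given without it. Ppargc1a, the gene that encodes PGC-1α, was not higher on the arrays labelled mPGC-1α. Its brighter probe was lower in mPGC-1α by a log2 difference of -0.31 (SE 0.24, adjusted p = 0.80), so the samples are called by their labels. Microglial markers summed to 239 to 267 in control and 256 to 275 in mPGC-1α arrays, relative to the 75th percentile, and all 10 were above background. Of the 8 tested, 4 were higher and 4 lower, with Cx3cr1, the locus that drives the Cre, at a log2 difference of -1.23 (adjusted p = 0.68) and Olfml3 at -1.36. Of the other lists, neuronal markers summed to 40.8 to 66.6 in control and 65.9 to 75.7 in mPGC-1α arrays, with 10 of 10 genes higher. Oligodendrocyte markers summed to 16.3 to 23.3 and 27.8 to 39.2 (8 of 8 higher), and astrocyte markers to 13.5 to 17.9 and 18.9 to 46.4 (7 of 7 tested higher). The median log2 difference was 0.91 for neuronal, 0.74 for oligodendrocyte and 0.67 for astrocyte markers. At an unadjusted p below 0.05 in limma, 6, 3 and 3 of these genes were higher, against 3.41% of all named genes. None had an adjusted p below 0.05 (smallest adjusted p = 0.68). Monocyte and macrophage markers summed to 29.3 to 42.3 and 21.5 to 46.7, with 8 of 10 lower (median log2 difference -0.19) and Arg1 the lowest at -2.20 (adjusted p = 0.68). Neutrophil markers summed to 154 to 214 and 138 to 234 (3 of 5 tested higher), and endothelial and mural markers to 1.15 to 2.06 and 1.20 to 1.35 (4 of 5 tested higher), with Rgs5 and Tek above background on no array. The part of these markers in the lysosomal values was not tested. In bulk RNA, fewer cells of a type and less RNA per cell cannot be told apart.

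To ask whether lysosomal genes differ between microglia of mPGC-1α and control mice, each gene was compared on its brightest probe. None of the 33 tested genes differed beyond the spread between arrays (0 with adjusted p below 0.05 in limma, smallest adjusted p = 0.72), as for all 18222 named genes (0% called). At an unadjusted p below 0.05 the count was also 0, where 3.41% of all named genes were higher in mPGC-1α and 2.68% were lower. The log2 differences, mPGC-1α minus control, ran from -0.87 for Atp6ap1 to 0.32 for Tpp1, with a median of 0.16 against 0.11 over all named genes. They were above 0 in 22 genes and below 0 in 11, where 64% of all named genes were above 0. The position of the median depended on the scaling. After quantile normalization it was -0.02 against 0.07 over all named genes, with 13 genes above 0 and 20 below, and in the authors' normalized values it was also -0.02. With all spots kept, 4 of the 36 genes (11.1%) had every mPGC-1α array above every control array, namely Man2b1, Lamp1, Ctsa and Ctso, against 8.84% of all named genes. In the opposite direction 0 genes were free of overlap, against 3.23% of all. With 3 arrays against 3, an exact two-sided permutation test cannot give a p below 0.1, and one that keeps arrays of the same number as pairs, added after seeing the data, cannot give a p below 0.25.

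**Figure D1:**
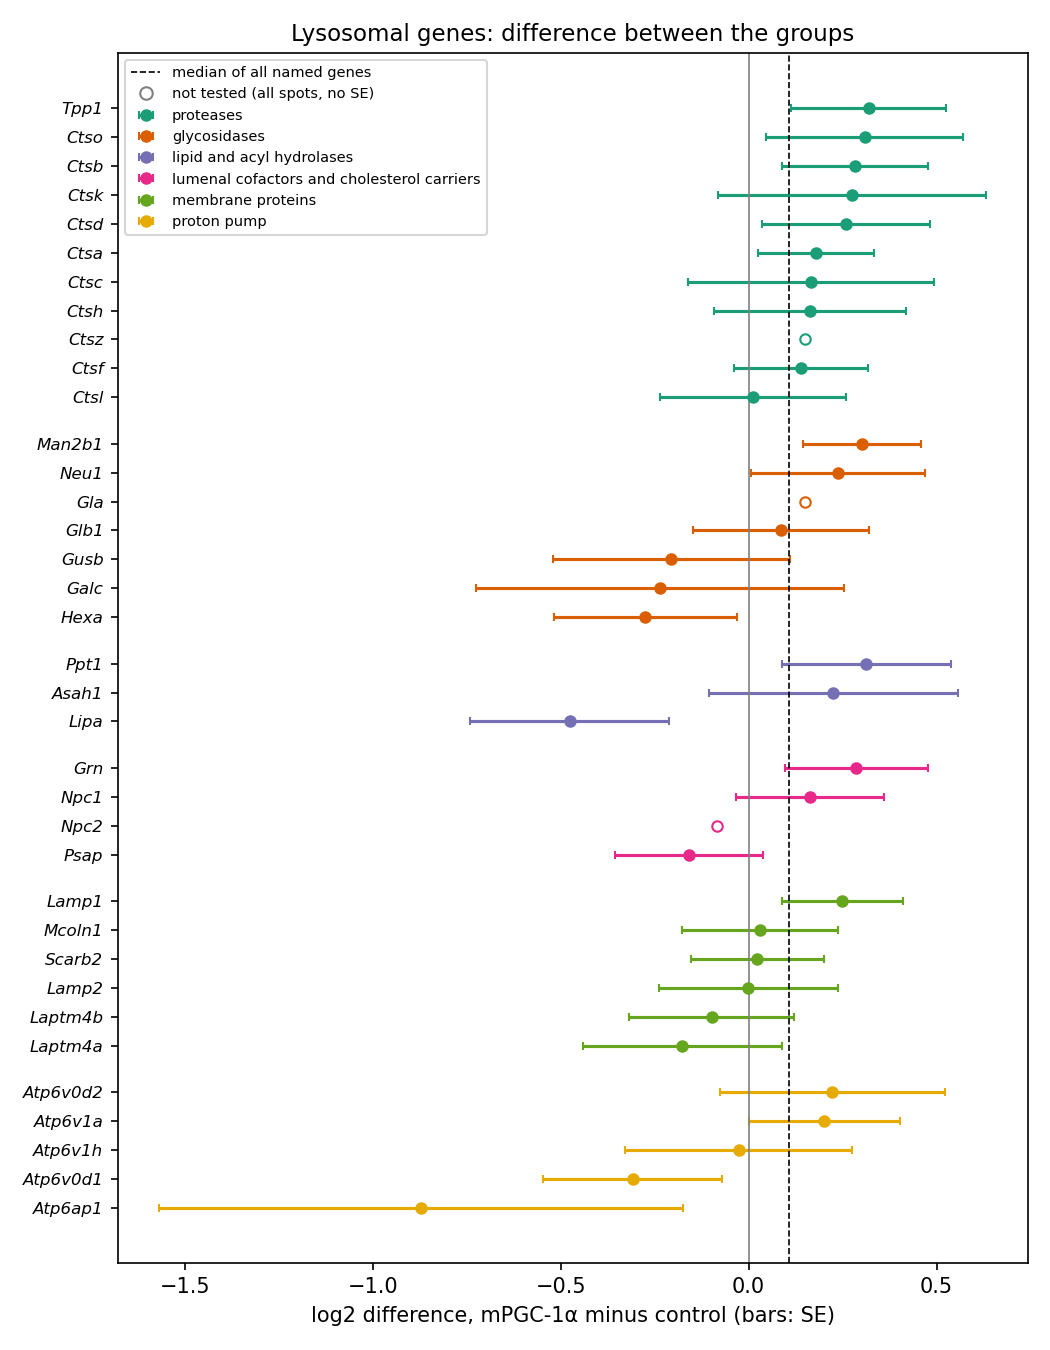
Log2 difference (mPGC-1α minus control) of each lysosomal gene on its brightest probe, by role. Filled points are fits to unmarked spots with their SE, open points are the 3 genes that were not tested, the dashed line is the median of all named genes, and the points lie between -0.87 and 0.32.

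Among the 6 role groups, the proteases, which are the largest, all lay on one side. The 10 tested had log2 differences from 0.01 to 0.32 (median 0.22), all above 0 and none past the test. After quantile normalization Ctsa, Ctsc, Ctsd, Ctsf, Ctsh and Ctsl were below 0. Ctsa, a carboxypeptidase that also holds β-galactosidase and neuraminidase in a stable complex, was at 4.65, 4.73 and 4.78 in the control arrays and 4.89, 4.87 and 4.94 in the mPGC-1α arrays. The groups did not overlap, and the log2 difference of 0.18 (SE 0.15) had an adjusted p of 0.81 and an exact permutation p of 0.1 (0.25 within pairs), the smallest each can give. Ctso, a cysteine protease, was at -3.12, -3.09 and -2.96 in control and -2.66, -2.64 and -2.94 in mPGC-1α, a log2 difference of 0.31 (SE 0.26, adjusted p = 0.81). Array 3 of the 2 groups lay close together (-2.96 and -2.94), so that the gap between the groups was small. Tpp1, a tripeptidyl peptidase whose loss causes a neuronal ceroid lipofuscinosis, was at 3.36, 3.84 and 3.40 in control and 4.03, 3.59 and 3.94 in mPGC-1α. Its log2 difference was 0.32 (SE 0.21, adjusted p = 0.77), and control array 2 lay above mPGC-1α array 2.

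Ctsb, a cysteine protease released into the cytosol when lysosomes leak, was at 4.68, 4.72 and 4.51 in control and 5.03 and 4.81 in the unmarked mPGC-1α arrays. The log2 difference was 0.28 (SE 0.19, adjusted p = 0.77). The marked spot of mPGC-1α array 3 read 4.12, below every control, and with it the difference was 0.02. Ctsd, the main aspartic protease of the lysosome, was at 5.77, 6.38 and 6.25 in control and 6.41 and 6.37 in the unmarked mPGC-1α arrays 2 and 3, and the marked spot of mPGC-1α array 1 read 6.28. Control array 2 lay within the mPGC-1α values, and the log2 difference was 0.26 (SE 0.22, adjusted p = 0.82). The other proteases, Ctsc (which activates serine proteases of immune cells), Ctsf, Ctsh, Ctsk and Ctsl, had log2 differences between 0.01 for Ctsl and 0.27 for Ctsk, with the groups overlapping. Ctsk was the dimmest of the 36 genes, at -4.67 to -3.62, and its difference had an SE of 0.36. Ctsz was not tested, because the spots of control array 3 and mPGC-1α arrays 2 and 3 were marked, and with all spots its difference was 0.15.

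The glycosidases, which remove sugars from glycoproteins and glycolipids, went both ways. Of the 6 tested, 3 had log2 differences above 0 and 3 below (median -0.06). Man2b1, the lysosomal α-mannosidase, had the smallest p of the 33 tested genes. It was at 4.16, 4.14 and 4.29 in control and 4.49, 4.52 and 4.48 in mPGC-1α. The groups did not overlap, with a log2 difference of 0.30 (SE 0.16, adjusted p = 0.72). Its difference was 0.36 on the first slide and 0.19 on the second. Neu1, the sialidase that works in the complex with Ctsa, had a log2 difference of 0.24 (SE 0.23, adjusted p = 0.84) and Glb1, the β-galactosidase of that complex, one of 0.09 (SE 0.23, adjusted p = 0.95). Gusb (β-glucuronidase), Hexa (a subunit of β-hexosaminidase) and Galc, which cleaves the myelin lipid galactosylceramide, had log2 differences of -0.21, -0.27 and -0.24. Galc was at -2.22 on control array 2 and at -0.59 and -0.14 on the other controls, and its 3 mPGC-1α values of -1.36, -1.52 and -0.78 lay between them. Gla, the α-galactosidase, was not tested because of 3 marked spots. With all spots it read 2.59, 3.00 and 1.79 in control and 2.62, 2.40 and 2.81 in mPGC-1α, with overlap.

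Of the 3 lipid and acyl hydrolases, 2 had log2 differences above 0 and 1 below. Lipa, the acid lipase that frees cholesterol and fatty acids from lipoprotein lipids, was at 1.41, 0.53 and 1.02 in control and 0.72, 0.53 and 0.28 in mPGC-1α. Control array 2 lay among the mPGC-1α values, so that the groups overlapped, and the log2 difference was -0.48 (SE 0.26, adjusted p = 0.74). Ppt1, which removes palmitate from proteins, was at 3.13 and 3.20 in the unmarked control arrays and 3.44 and 3.52 in the unmarked mPGC-1α arrays. The log2 difference was 0.31 (SE 0.22, adjusted p = 0.79). The marked spots of array 3 read 3.87 in control and 3.79 in mPGC-1α, and with them the difference was 0.18. Asah1, acid ceramidase, had a log2 difference of 0.23 (SE 0.33, adjusted p = 0.90).

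Among the lumenal cofactors and cholesterol carriers, Grn (progranulin, a growth factor precursor that is cleaved in lysosomes and is abundant in microglia) was at 5.83, 6.45 and 6.19 in control and 6.36, 6.43 and 6.54 in mPGC-1α. Control array 1 was lower than the rest, the groups overlapped, and the log2 difference was 0.29 (SE 0.19, adjusted p = 0.77). Psap, the precursor of the saposins that present sphingolipids to their hydrolases, had a log2 difference of -0.16 (SE 0.20, adjusted p = 0.88). Npc1, which exports cholesterol through the lysosomal membrane, had one of 0.16 (SE 0.20, adjusted p = 0.87). Npc2, which hands cholesterol to Npc1, was not tested because 4 of its 6 spots were marked. Its difference with all spots was -0.08.

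The membrane proteins had a median log2 difference of 0.01, 3 above 0 and 3 below. Lamp1, a heavily glycosylated protein that lines the lysosomal membrane, was at 4.76, 4.82 and 4.84 in control and 4.89, 5.13 and 5.15 in mPGC-1α. The groups did not overlap, and the log2 difference was 0.25 (SE 0.16, adjusted p = 0.77). It was 0.22 on the first slide and 0.31 on the second. Lamp2, its paralogue that also serves chaperone-mediated autophagy, was at 2.47 and 2.37 in the unmarked control arrays and 2.33 and 2.51 in the unmarked mPGC-1α arrays. The marked spots of array 3 read 2.50 and 2.58. The groups overlapped, and the log2 difference was -0.0012 (SE 0.24, adjusted p = 0.999). Scarb2, an abundant glycoprotein of the lysosomal membrane, and Mcoln1, a cation channel of the lysosomal membrane, had log2 differences of 0.02 and 0.03. Laptm4a and Laptm4b, small transmembrane proteins of late endosomes, had differences of -0.18 (SE 0.27) and -0.10 (SE 0.22).

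The proton pump subunits also went both ways, with a median log2 difference of -0.03. Atp6v0d1, a subunit of the membrane sector, was at 3.28, 2.73 and 3.58 in control and 2.70, 2.99 and 2.97 in mPGC-1α. Control array 2 lay among the mPGC-1α values, and the log2 difference was -0.31 (SE 0.24, adjusted p = 0.80). Atp6v0d2, the form of that subunit found in osteoclasts and macrophages, had a difference of 0.22 (SE 0.30, adjusted p = 0.89). Atp6v1a, the catalytic subunit of the cytosolic sector, had one of 0.20 (SE 0.20, adjusted p = 0.84), and Atp6v1h, which regulates that sector, one of -0.03 (SE 0.30, adjusted p = 0.99). Atp6ap1, an accessory protein of the pump, was at 3.18 on control array 1 and 0.26 on control array 2, and the marked spot of control array 3 read 2.81. The mPGC-1α arrays read 1.03, 0.59 and 0.93, between the controls. The log2 difference was -0.87 with an SE of 0.70, the widest of the 33 genes, and an adjusted p of 0.80.

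Many of the values moved when control array 2 was left out. Of the 36 genes with each gene's mean over the arrays set to 0 and all spots kept, the median was -0.14 on control array 2, against 0.13 for all named genes there. On control arrays 1 and 3 the lysosomal median was -0.02 and 0.06, against -0.20 and -0.10 for all named genes. On the mPGC-1α arrays it was 0.04, 0.03 and 0.13, against 0.06, 0.09 and 0.01. Without control array 2, 8 lysosomal genes had an unadjusted p below 0.05. Tpp1, Grn and Atp6v1a had log2 differences above 0 (0.47, 0.43 and 0.39), and Hexa, Galc, Lipa, Atp6v0d1 and Atp6ap1 had differences below 0 (-0.48, -0.85, -0.71, -0.54 and -2.33). In that fit 13.3% of all named genes were higher at that p and 7.16% lower. Atp6ap1 was the 1 gene of the 33 past the adjusted threshold (adjusted p = 0.0044), in a fit that called 2.93% of all named genes. It then rested on 1 unmarked control array, whose spread was assumed to be that of the other genes and arrays. In all, 21 of the 33 differences moved by over 1.5 times or changed sign, and the other 12 moved by less. Besides those named, Ctsc was at 0.59, Gusb at -0.55, Laptm4a at -0.34, Psap at -0.32, Atp6v1h at -0.29, Mcoln1 at 0.11, Npc1 at 0.11, Ctsf at 0.06, Lamp2 at -0.05, Neu1 at 0.03, Glb1 at 0.03 and Scarb2 at 0.0051. Ctsh, Ctsl and Asah1 changed sign, to -0.12, -0.16 and -0.14. The median log2 difference of the tested lysosomal genes was 0.03 without control array 2, against 0.22 over all named genes.

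**Figure D2:**
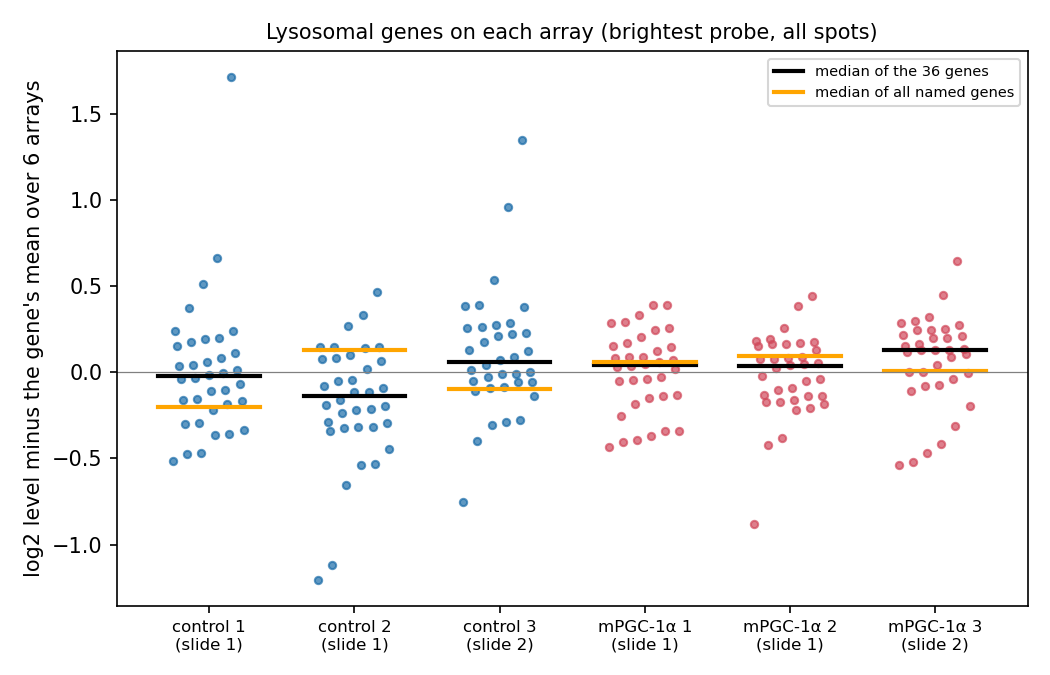
Level of the 36 lysosomal genes on each array, as log2 minus the gene's mean over 6 arrays, with all spots kept. Each point is a gene, the black line is their median and the orange line is the median of all named genes. On control array 2 the lysosomal median (-0.14) lies below that of all genes (0.13), and on control arrays 1 and 3 it lies above.

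The 2 slides each held both groups, so that the difference could be read within each. With all spots kept, the median log2 difference of the 36 genes was 0.18 on the first slide, with 2 arrays a group, and 0.02 on the second, with 1 array a group. Over all named genes it was 0.09 and 0.12. In 23 of the 36 genes both slides gave the same sign, 14 above 0 and 9 below. No such share is given for all named genes, so the count is not a measure of agreement between the slides. The marks of the scanner software fell often on these genes. At least 1 of the 6 spots was marked for the brightest probe of 16 of the 36 genes (44.4%), against 11.1% of all named genes. The 2 sets follow unlike rules. The 36 include Ctsz, Gla and Npc2, which were not tested because of their marks, while all named genes here are tested ones. That raises the lysosomal shares against those of all named genes, also by array. Most marks lay on the second slide, with 11 genes on control array 3 (30.6%, against 3.81% of all) and 12 on mPGC-1α array 3 (33.3%, against 8.06%). As a result 20 of the 36 genes had 6 unmarked values, and the fits of the others rest mainly on the first slide.

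**Figure D3:**
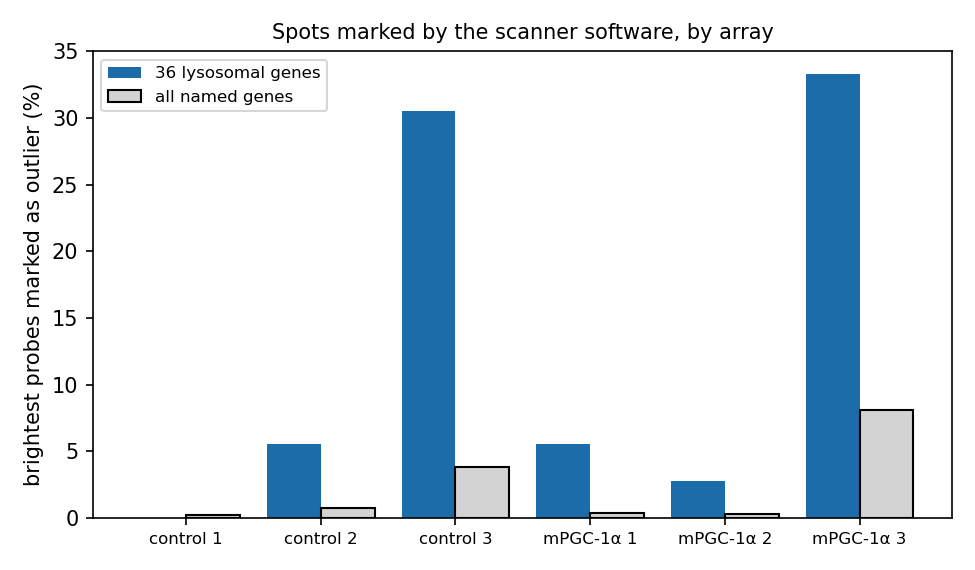
Percent of brightest probes whose spot was marked as an outlier by the scanner software, for the 36 lysosomal genes and all named genes, on each array. The 36 include genes not tested because of their marks, while all named genes are tested ones, which raises the lysosomal bars. The bars of the lysosomal genes reach 30.6% and 33.3% on array 3 of the 2 groups, which lay on the second slide.

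A gene's probes did not always give the same answer. There were 10 lysosomal genes with several tested probes, and their brightest probes all had log2 differences above 0 (0.02 to 0.29 with all spots, median 0.17). Their 13 dimmer probes had a median of -0.35, with 9 below 0, while over all named genes the dimmer probes had a median of -0.10 (58.3% below 0) and the brightest 0.13. The sign of a dimmer probe differed from the brightest in Ctsc, Glb1, Asah1, Ppt1, Grn, Atp6v0d2 and Scarb2. The Glb1 pair was furthest apart. Its dimmer probe was at 1.07, -1.86 and 0.99 in control and -1.70, -1.74 and -1.57 in mPGC-1α, a log2 difference of -1.74 (SE 0.67, adjusted p = 0.69). Control array 2 lay below all mPGC-1α arrays, and the other controls lay far above them. The dimmer Asah1 probe had the same shape, at 2.25, 0.08 and 2.68 in control and 0.76, 0.85 and 1.24 in mPGC-1α.

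The low value of control array 2 recurred in the dimmer probes. Control array 2 was below the mean of control arrays 1 and 3 on 13 of 13 dimmer probes, by a median of -1.22 (log2), and 2 of these, for Atp6v0d2 and Ctsl, were lower by 0.04 or less. For all named genes together the same quantity had a median of -0.08 in dimmer probes, with 53.5% below 0. On the brightest probes of the same 10 lysosomal genes the median was -0.12, with 6 of 10 lower. The 29 dimmer probes of other lysosomal genes had a median of -0.53 (72.4% lower) and a median difference between the groups of -0.25. Against control arrays 1 and 3 alone, the mPGC-1α arrays had a median log2 difference of -0.65 on the 13 dimmer probes. It was -0.11 on the dimmer probes of all named genes and 0.05 on the 10 brightest lysosomal probes. In a dimmer probe of Ctsh, Lamp1, Ctsl and Atp6v0d2 the mPGC-1α arrays did not all lie between control array 2 and the other controls. The pattern was noticed in these values and was given no test.

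**Figure D4:**
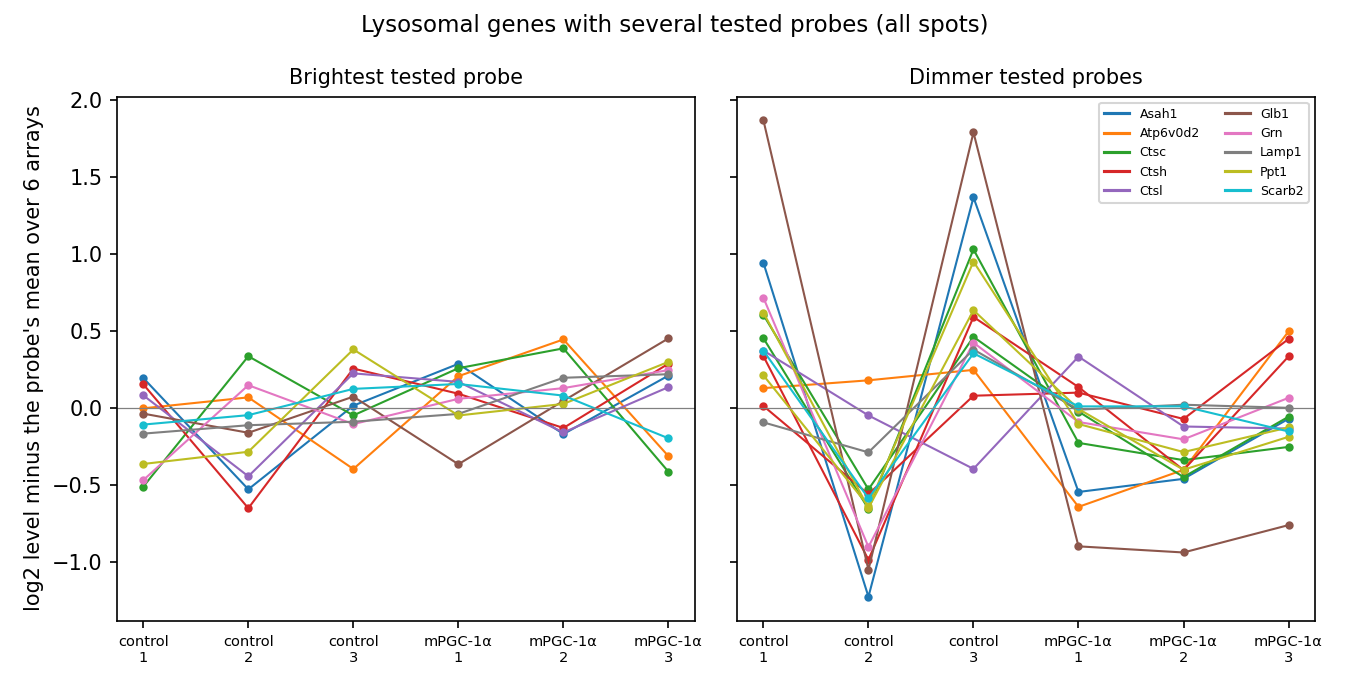
Level on each array of the brightest probe (left) and the dimmer probes (right) of the 10 lysosomal genes with several tested probes, as log2 minus the probe's mean over 6 arrays, with all spots kept. Lines join the values of 1 probe and colours mark genes. On the right control array 2 lies below the mean of control arrays 1 and 3 on all 13 probes, by a median log2 difference of -1.22. On the left it does so on 6 of 10, and the plotted values run from -0.65 (Ctsh on control array 2) to 0.45 (Glb1 on mPGC-1α array 3).

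The wider pathway was read from 63 other lysosomal genes, namely further hydrolases, membrane proteins, pump subunits, sorting factors, cathepsin inhibitors and the transcription factors. Of these, 59 were tested, and 0 passed the adjusted threshold (smallest adjusted p = 0.70) or an unadjusted p of 0.05. At that unadjusted p 3.41% of all named genes were higher and 2.68% lower, and 0% passed the adjusted threshold. The median log2 difference of the 59 genes was 0.15, with 41 above 0 and 18 below. Over all named genes the median was 0.11, with 64% above 0. The 12 tested other pump subunits had a median of 0.23, 11 of them above 0, and the 23 other hydrolases had a median of 0.04, 12 above 0 and 11 below. Atp6v0c, the subunit that forms the proton-carrying ring, was at 4.44, 4.45 and 4.31 in control and 4.80, 4.70 and 4.74 in mPGC-1α. Its groups did not overlap, with a log2 difference of 0.35 (SE 0.16, adjusted p = 0.70). Sort1, a sorting receptor for progranulin and other lysosomal proteins, had a difference of 0.42 (SE 0.23, adjusted p = 0.74), and Tfe3 one of 0.31 (SE 0.19, adjusted p = 0.75). On the other side stood Pla2g15, a lysosomal phospholipase, at -0.59 (SE 0.28, adjusted p = 0.71), and Tpcn2, a cation channel of endosomes and lysosomes, at -0.51 (SE 0.29, adjusted p = 0.75). For Pla2g15 the spot of mPGC-1α array 3 was marked, and with all spots its difference was -0.44, with overlap. It was -0.73 on the first slide and 0.14 on the second. For Tpcn2 the groups did not overlap. With all spots kept, 8 of the 63 genes (12.7%) were free of overlap and higher, against 8.84% of all named genes. In the opposite direction 2 were, against 3.23% of all.

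The regulators of the pathway did not differ between the groups beyond their spread. Tfeb, the main activator of lysosomal genes, was at 1.39, 1.20 and 0.90 in control and 1.42, 1.11 and 1.35 in mPGC-1α, a log2 difference of 0.13 (SE 0.21, adjusted p = 0.91). Mitf had a difference of -0.11 (SE 0.26, adjusted p = 0.94). Of the 6 genes whose promoters hold the CLEAR core shown above, Ctsa, Ctsd, Mcoln1 and Atp6v1a had differences of 0.18, 0.26, 0.03 and 0.20, Atp6v0d1 one of -0.31, and Gla was not tested.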

How the data were processed

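RNA of microglia from 3 control and 3 mPGC-1α samples was hybridised to 1-colour Agilent mouse arrays. Groups and replicate numbers were taken from the labels, which list the dye as Cy3 but describe labelling with Cy5; a single green channel was present. The scanner files deposited by the authors (Agilent Feature Extraction 11.5.1.1) hold linear intensity values, with the processed signal background-subtracted and not normalized between arrays, and flags for outliers and for spots above background. The authors also deposited a matrix of log2 values, normalized in GeneSpring.

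The log2 processed signal minus the 75th percentile of the array over all probes that are not controls, marked spots included, was computed in R 4.3.3 (package data.table, version 1.17.8). The percentiles were 702 to 1179. Spots marked as outliers were left out of the fits and spots of 1 probe averaged. Where values are given with all spots, the marked spots were put back. Testing required a signal well above background on every unmarked array of 1 group and at least 2 values in each group, which left 40745 of 56605 probes. Probes were named through RefSeq accessions (GRCm38.p6): 33767 matched (59.7%). The array annotation is older, so no probe coordinates are given. A gene was read on its brightest tested probe. Marker sums and the 3 genes that failed this rule used all spots.

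Groups were compared with limma 3.58.1 (lmFit, eBayes with an intensity trend, two-sided), with p-values adjusted by Benjamini-Hochberg across the 40745 probes and called below 0.05. The procedure was tested on simulated data. No test for these arrays is given in the methods. Exact permutation tests used all 20 assignments, which ignores the pairing, and the 8 within pairs. Same-numbered arrays deviated together (correlations of 0.247, 0.224 and 0.171 across probes, against at most 0.035 for other pairs). The main comparison had no block and ignored this pairing, and the replicate number was fitted as a block as an alternative. Array 3 of both groups also shared the second slide, so pairing and slide cannot be told apart there. Other alternatives were normalization, background correction, filters, slide, trend, probe choice and leaving out each array. The genes and lists were chosen with earlier results of these data known. The text gives values on every array for the 10 genes with the smallest p, those without overlap, and Lamp1, Lamp2, Ctsb, Ctsd and Grn. Other lysosomal genes were named by the 3 smallest p in each direction, with Tfeb, Tfe3 and Mitf. A gene that this rule selects is not reported here. Galc, Gla, the dimmer Glb1 and Asah1 probes, Olfml3 and Arg1 were chosen after their values were seen. The number of arrays limits the precision.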

Additional observations from a re-analysis of the deposited data

How the results depend on the processing

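Across the alternatives, 0 lysosomal genes passed the adjusted threshold, except in the fit without control array 2 (0 to 1 over the fits that left out an array, with Atp6ap1 the 1 gene). The fit with the replicate number as a block also called 0 of the 28 genes it could fit (smallest adjusted p = 0.45), with a median of 0.16, and it changed no call. The count at an unadjusted p below 0.05 was 0 to 8 when an array was left out. It was 1 with the replicate block and quantile normalization, 2 with the replicate block and the percentile over unmarked spots, and 1 with the replicate block and marked spots kept, all 3 chosen after seeing the data. For the other lysosomal genes that count, 0 in the main comparison, was 0 to 11 when an array was left out. It was 1 under quantile normalization, normexp with quantile normalization, the authors' series matrix, marked spots kept, the slide as a block and the replicate block. It was 3 for the mean of all probes, 3 for the replicate block with quantile normalization, 5 with the percentile over unmarked spots and 3 with marked spots kept. The median log2 difference of the lysosomal genes was -0.018 under quantile normalization, -0.024 with normexp, -0.020 in the series matrix, -0.024 with the replicate block and quantile normalization, and 0.039 for the mean of all probes. It ran from 0.029 to 0.18 when an array was left out. The percentile taken over unmarked spots, which differ between arrays, gave 0.21.

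The direction of single genes changed under 67 combinations of gene and alternative, and in none of these did the gene pass the adjusted threshold. Under quantile normalization Ctsa was at -0.0032, Ctsc at -0.018, Ctsd at -0.013, Ctsf at -0.026, Ctsh at -0.017, Ctsl at -0.16, Glb1 at -0.025, Mcoln1 at -0.071 and Scarb2 at -0.16. With the replicate block and quantile normalization Ctsa was at -0.0032, Ctsb at -0.042, Ctsd at -0.022, Ctsf at -0.026, Ctsh at -0.017, Ctsl at -0.042, Glb1 at -0.025, Mcoln1 at -0.071 and Scarb2 at -0.16. With normexp Atp6v1a was at -0.0058, Ctsd at -0.053, Ctsf at -0.038, Ctsh at -0.032, Ctsl at -0.094, Grn at -0.018, Mcoln1 at -0.055 and Scarb2 at -0.12. In the series matrix Ctsb was at -0.16, Ctsd at -0.059, Ctsf at -0.0053, Ctsl at -0.091, Glb1 at -0.020, Mcoln1 at -0.072 and Scarb2 at -0.14. For the mean of all probes Asah1 was at -0.068, Atp6v0d2 at -0.072, Ctsc at -0.074 and Glb1 at -0.83. Ctsl was at -0.065 with the percentile over unmarked spots and -0.0055 over single spots. Lamp2 was at 0.024 with marked spots kept, with and without the block. Laptm4a was at 0.0090 with the slide or the replicate number as a block. When an array was left out, the differences ran from -0.14 to 0.59 for Asah1, -2.33 to 0.59 for Atp6ap1, -0.29 to 0.23 for Atp6v1h, -0.26 to 0.59 for Ctsc, -0.12 to 0.33 for Ctsh, -0.16 to 0.18 for Ctsl, -0.85 to 0.19 for Galc, -0.12 to 0.29 for Glb1, -0.55 to 0.14 for Gusb, -0.090 to 0.088 for Lamp2, -0.42 to 0.063 for Laptm4a, -0.20 to 0.048 for Laptm4b, -0.11 to 0.13 for Mcoln1 and -0.048 to 0.13 for Scarb2. The cause was not tested.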
